A study of Mus musculus with 20 samples.

Results

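The Ms4a genes encode small membrane proteins that cross the plasma membrane 4 times and sit beside receptors at the surface of blood cells and of some epithelia. Best known among them are CD20 of B cells (Ms4a1) and the beta chain of the high-affinity IgE receptor of mast cells (Ms4a2). The 10 genes described here were chosen by symbol from the 51810 genes of the deposited table: Ms4a4a, Ms4a4b, Ms4a4c, Ms4a4d, Ms4a6b, Ms4a6c, Ms4a6d, Ms4a7, Ms4a8a and Ms4a10. The choice used measured values, because it named Ms4a10 and Ms4a4d as genes with low RNA in cHyper mTEClo. That pair is therefore described without a test wherever mTEClo enters, and the whole set is described without a test in the genotype comparison of mTEClo. The table holds 21 genes with an Ms4a symbol, so 11 others stand beside the 10.

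RNA was measured in medullary thymic epithelial cells (mTEC), the stromal cells of the thymus that display tissue antigens to developing T cells. In the labels there are 2 genotypes, Trp53-WT (WT) and Trp53-cHyper (cHyper), and 2 sorted cell types, mTEClo and mTEChi. They make 4 groups of 3 libraries, all untreated as far as the labels say. Mice were 4 to 5 weeks old, and 75000 mTEC per sample were sorted after enrichment for EpCAM. The sources used here give neither the alleles behind cHyper, nor a Cre or promoter, nor the gates that separated mTEClo from mTEChi. By convention mTEClo carry little and mTEChi much surface MHC class II or CD80, and mTEChi include the cells that express Aire, the regulator that switches on many tissue-restricted genes. Whether replicates were separate animals is not stated, and the tests therefore rest on the spread among libraries, which may be technical.

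Libraries held 22.02 to 47.93 M fragments, and replicate 3 of each group was the shallowest. Epcam was high in all groups, with means of 468.6 to 554.7 CPM (fragments of the gene per 1 M fragments of the library). Aire stood at 14.3 ± 2.60 CPM (SD, n = 3) in WT mTEClo and 1918 ± 2.90 in WT mTEChi, and H2-Aa (MHC class II) at 2931 ± 131 and 6529 ± 866. These levels follow the labelled cell types. Trp53 had 137 ± 0.958 CPM in WT mTEClo against 166 ± 11.6 in cHyper mTEClo (log2 0.27, SE 0.083, edgeR adjusted p = 0.0553), and 101 ± 4.59 against 134 ± 4.66 CPM in mTEChi (log2 0.41, SE 0.083, edgeR adjusted p = 0.020). The altered alleles are not described, so this level does not check the genotype labels.

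In mice the family lies in one cluster on chromosome 19 (mm10), where the 21 genes span chr19:10962293-11640851, a stretch of 678.6 kb. All are annotated as protein-coding, 15 on the minus and 6 on the plus strand, and their coordinates equal those of the GENCODE M21 annotation. Ms4a10 opens the cluster at chr19:10962293-10974670 on the minus strand, followed with other family members between by Ms4a8a at chr19:11067471-11081102 and Ms4a7 at chr19:11321039-11336146, both also on the minus strand. A run of 6 genes on the plus strand comes next. It holds Ms4a4a at chr19:11375523-11392790, Ms4a4c at chr19:11404770-11427246, Ms4a4b at chr19:11443553-11467055, Ms4a6c at chr19:11469366-11482192, Ms4a6b at chr19:11516512-11531256 and Ms4a4d at chr19:11536801-11558467. Ms4a6d follows on the minus strand at chr19:11586604-11604849. Ms4a10 and Ms4a4d, the pair with the highest RNA in WT mTEClo, are thus not neighbours.

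RefSeq promoters (GRCm38.p6, 250 bases before to 50 after the start) were on hand for 9 of the 10 genes, Ms4a6d being the one not matched. Those of Ms4a10 and Ms4a4d are shown as the 2 genes with most RNA in WT mTEClo, and that of Ms4a4c because it lies in the same plus-strand run as Ms4a4d and has the opposite order of levels between the cell types. They lie at chr19:10974651-10974950 (minus), chr19:11536544-11536843 (plus) and chr19:11407411-11407710 (plus, inside the annotated span of Ms4a4c). Each is written 5′ to 3′ along the gene, and capitals mark a match to 1 of 8 motifs that were searched.
Ms4a10: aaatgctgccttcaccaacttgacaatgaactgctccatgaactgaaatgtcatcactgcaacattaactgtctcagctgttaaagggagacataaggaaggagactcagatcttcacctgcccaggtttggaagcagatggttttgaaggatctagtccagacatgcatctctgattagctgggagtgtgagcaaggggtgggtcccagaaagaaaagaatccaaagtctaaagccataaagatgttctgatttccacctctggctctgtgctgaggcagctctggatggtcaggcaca
Ms4a4d: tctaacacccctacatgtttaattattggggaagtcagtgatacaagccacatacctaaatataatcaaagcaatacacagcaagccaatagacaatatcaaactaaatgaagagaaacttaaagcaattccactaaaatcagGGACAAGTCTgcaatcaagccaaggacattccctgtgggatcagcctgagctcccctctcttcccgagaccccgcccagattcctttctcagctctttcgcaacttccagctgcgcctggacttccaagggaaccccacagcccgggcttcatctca
Ms4a4c: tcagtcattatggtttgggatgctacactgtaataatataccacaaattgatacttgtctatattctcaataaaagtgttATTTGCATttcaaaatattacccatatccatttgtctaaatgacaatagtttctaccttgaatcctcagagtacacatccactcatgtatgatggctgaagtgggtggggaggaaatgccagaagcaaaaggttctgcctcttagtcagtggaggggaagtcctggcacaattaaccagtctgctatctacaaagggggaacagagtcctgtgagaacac
The motifs, read on both strands, were the AP-1 motif TGANTCA, PU.1 GAGGAAGT, HNF4 CAAAGTCCA, octamer ATGCAAAT, the TATA box TATAAA, and the interferon-stimulated response element, kappaB and Trp53 half-site motifs. They were counted separately where they overlapped. The Ms4a10 window held none of the 8. The Ms4a4d window held 1 Trp53 half-site, GGACAAGTCT, from base 144, a motif found in 8.36% of 32851 promoters of this length. The Ms4a4c window held the octamer on the other strand, ATTTGCAT, from base 81, against 1.74% of promoters. The interferon element, in 3.44% of promoters, matched in none of the 10 windows of the 9 genes. These matches describe letters and show no binding.

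Per length of transcript, the 2 cell types of WT mice were led by different genes. Deposited TPM, a level per transcript length, put Ms4a10, known from the small intestine, first in WT mTEClo with 11.7 ± 0.873 (SD, n = 3) and Ms4a4d second with 8.68 ± 1.60. Their ranges, 10.78 to 12.52 and 7.157 to 10.34, did not overlap. The other 8 genes had means of at most 0.255 TPM there. Ms4a10 and Ms4a4d were named for a fall in cHyper mTEClo, which needs a clear level in WT mTEClo. Their rank in WT mTEClo is therefore a description. In WT mTEChi the order was Ms4a6d, a macrophage gene, at 11.2 ± 0.845 TPM, then Ms4a10 at 6.55 ± 1.43, then Ms4a8a, known from intestinal epithelium and alternatively activated macrophages, at 2.25 ± 0.292. Ms4a4c at 2.12 ± 0.591 and Ms4a4a at 1.89 ± 0.220 followed, and their ranges overlapped with each other and with that of Ms4a8a. Ms4a6c at 1.12, Ms4a6b at 0.967, Ms4a4d at 0.761, Ms4a4b at 0.714 and Ms4a7 at 0.577 TPM closed the order, and each overlapped in range with the next. The TPM of a gene depends on its merged exon length in the table, which ran from 0.836 kb (Ms4a4a) to 8.78 kb (Ms4a4b).

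**Figure D1:**
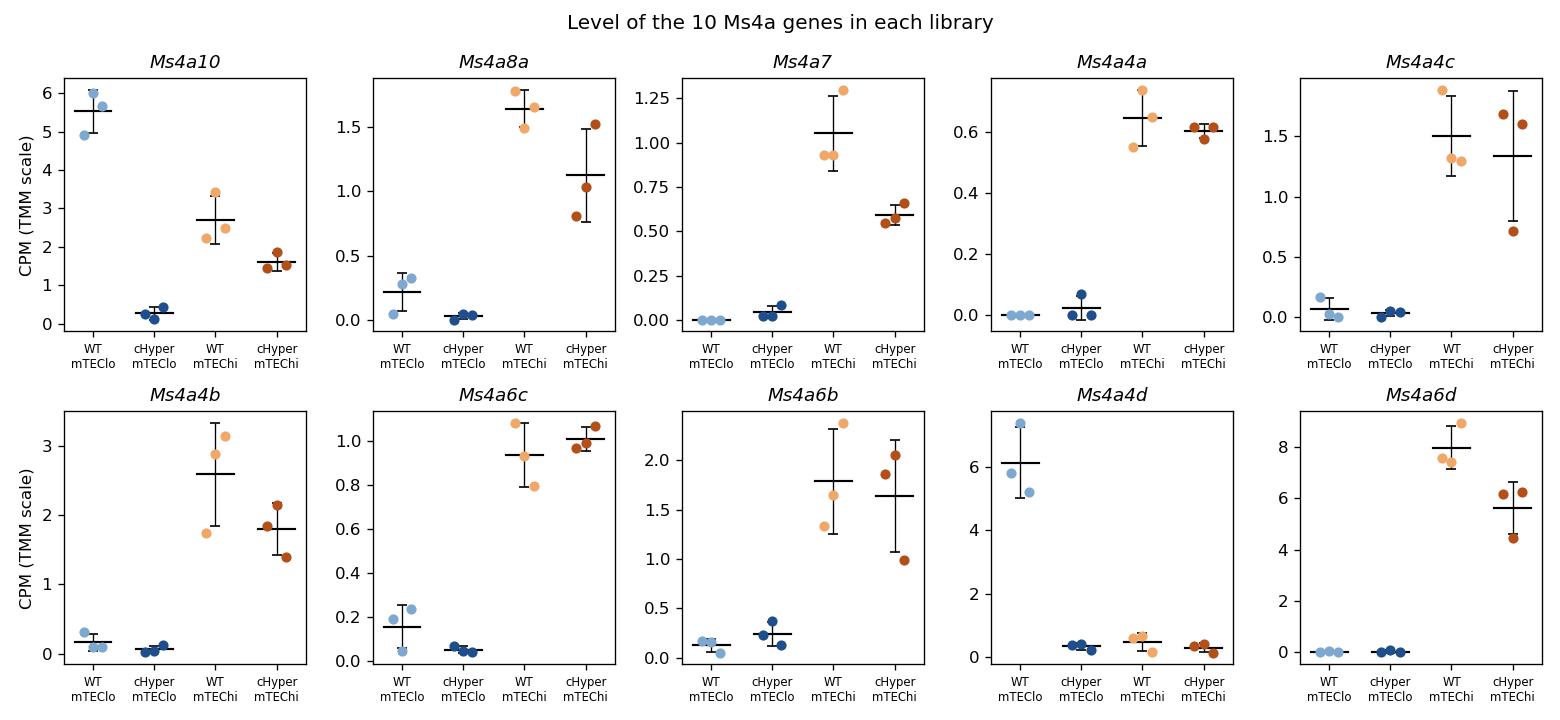
Level of each of the 10 Ms4a genes in CPM (linear axis, a scale of its own in each panel) in the 12 libraries; points are libraries, the line is the group mean and the bar 1 SD. Ms4a10 and Ms4a4d stand highest in WT mTEClo (4.91 to 5.99 and 5.21 to 7.41 CPM), and the other 8 stand higher in mTEChi than in mTEClo of both genotypes.

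From here levels are CPM on the TMM scale, a scaling that makes libraries comparable for 1 gene but not genes with each other. Ms4a10 counted 4.91, 5.99 and 5.68 CPM in the 3 WT mTEClo libraries and 0.251, 0.115 and 0.448 CPM in those of cHyper. All 3 cHyper libraries lay far below all 3 of WT. The means were 5.53 ± 0.556 and 0.271 ± 0.167 CPM (SD, n = 3), from 588 and 27 fragments, 20.4-fold lower in cHyper, a fitted log2 change of -4.45.

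Ms4a4d, the last gene of the plus-strand run, counted 5.83, 7.41 and 5.21 CPM in WT mTEClo and 0.366, 0.414 and 0.204 CPM in cHyper mTEClo. The groups were again far apart. Means were 6.15 ± 1.13 and 0.328 ± 0.110 CPM (SD, n = 3), from 678 and 39 fragments, 18.8-fold lower in cHyper, with a fitted log2 change of -4.16. Both differences are what the pair was chosen for and carry no test. Of the 28932 genes tested in this comparison, 9.16% were called at an edgeR adjusted p under 0.05, 4.64% as lower in cHyper.

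The other 8 genes were near the lower limit of detection in mTEClo of both genotypes. Ms4a8a had 21 fragments in WT and 3 in cHyper mTEClo, at 0.0472, 0.278 and 0.328 CPM against 0, 0.0460 and 0.0407. The groups did not overlap, and the pooled ratio of 7.33 (WT over cHyper) had a wide 95% exact interval for counting error of 2.19 to 38.4. Ms4a4b, Ms4a6c and Ms4a4c counted 19, 15 and 8 fragments in WT against 6, 6 and 3 in cHyper, and their groups overlapped. Ms4a6b had 15 in WT and 29 in cHyper, with overlap, and Ms4a6d 3 and 4. Ms4a7 and Ms4a4a had 0 fragments in WT mTEClo, which allows a level of up to 0.0281 CPM (3 fragments over the group), and 4 and 3 in cHyper. In all, 3 of the 10 genes were lower in cHyper without overlap (Ms4a10, Ms4a4d and Ms4a8a), 1 was higher (Ms4a7), and 6 overlapped; over all tested genes 12.6% were lower and 11.8% higher in this way. Ms4a10 and Ms4a4d were chosen for it, so nothing is read from the share. Ms4a8a had 2 fragments both in WT replicate 1 and in cHyper replicate 2, which only the library scaling sets apart.

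Other gene groups of mTEClo had these values beside the pair. Of 16 interferon-response genes, 15 were lower in cHyper, among them Irf7, a regulator of the response (533.2 ± 69.4 against 91.7 ± 17.5 CPM, log2 -2.54, SE 0.155, edgeR adjusted p = 2.21e-07) and Oas2, a sensor of double-stranded RNA (58.7 ± 7.70 against 6.82 ± 1.42 CPM, edgeR adjusted p = 3.95e-07). The median log2 change of the 16 was -1.39 and that of all genes 0.0015. Of 9 tuft cell markers 6 were lower, and their summed level ran from 811.1 to 1081 CPM in WT and 474.8 to 708.6 in cHyper, with no marker at 0. Of 9 enterocyte and hepatocyte genes 1 was lower, Vil1 of the brush border (11.4 ± 3.15 against 3.51 ± 1.03 CPM, edgeR adjusted p = 0.000376). The sums of those 9 overlapped, at 24.3 to 41.41 and 18.39 to 37.65 CPM, with no marker at 0. Of the 15 macrophage and dendritic cell genes 1 was lower in cHyper mTEClo, C1qb (0.275 ± 0.159 against 0.631 ± 0.231 CPM, edgeR adjusted p = 0.0489), and their sums overlapped at 33.7 to 38.13 and 31.3 to 51.04 CPM. Of the T cell, B cell and mast cell genes edgeR called 0, with 4, 1 and 1 at an unadjusted p under 0.05. Their median log2 changes were 1.02, -0.076 and 1.64, the mast cell genes at sums of at most 0.285 CPM. The T cell gene of smallest p was Rag1 (12.4 ± 5.41 against 3.45 ± 3.52 CPM, edgeR adjusted p = 0.0625). Of 6 airway genes 3 were higher in cHyper, such as Bpifa1 (70.9 ± 24.1 against 17.1 ± 2.39 CPM, edgeR adjusted p = 1.4e-05). Of 6 fibroblast genes 2 were higher and 1 lower. Of 10 mTEC genes 1 was higher and 1 lower in cHyper mTEClo. Aire, the regulator of tissue-restricted gene display, was at 44.5 ± 6.46 against 14.3 ± 2.60 CPM (log2 1.64, SE 0.171, edgeR adjusted p = 2.39e-05), and Cd80, a costimulatory ligand, at 3.43 ± 0.665 against 6.997 ± 2.20 CPM (log2 -1.03, edgeR adjusted p = 0.0055). Both stood far higher in WT mTEChi, at 1918 and 199.6 CPM. The part of these groups in the levels of Ms4a10 and Ms4a4d was not tested. In bulk libraries fewer cells of a type and less RNA per cell cannot be told apart.

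Receptors and adaptors known to work with Ms4a proteins were also measured. Of 10 such genes, 2 were lower in cHyper mTEClo: Trem2, a lipid receptor of phagocytes, at 3.95 ± 0.816 against 21.5 ± 4.05 CPM (log2 -2.45, SE 0.225, edgeR adjusted p = 7.9e-06), and Fcer1g, the signalling chain of Fc receptors, at 0.200 ± 0.158 against 0.615 ± 0.175 CPM (edgeR adjusted p = 0.0426). Tyrobp, the adaptor through which Trem2 signals, had 0.131 ± 0.0279 and 0.202 ± 0.104 CPM and was not called (edgeR adjusted p = 0.338). The median of the 10 was -0.271. The related 4-pass membrane genes Tmem176a and Tmem176b were not called in either genotype comparison (edgeR, 0 at an unadjusted p under 0.05).

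**Figure D2:**
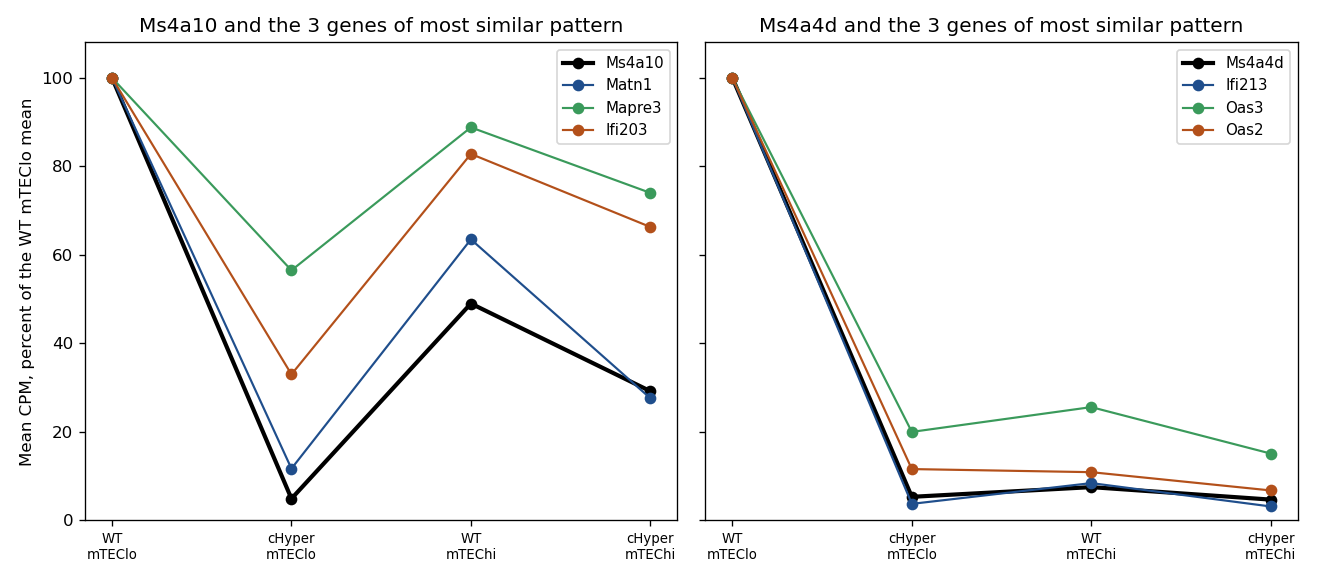
Group means in percent of the WT mTEClo mean (linear axis, n = 3 libraries per group) for Ms4a10 (left) and Ms4a4d (right), each with the 3 genes of most similar pattern; lines only join points of 1 gene. Ms4a10 stands at 4.91% in cHyper mTEClo and 49.0% in WT mTEChi, while Ms4a4d is at 7.52% or less in the other groups.

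Between the cell types the pair parted. Ms4a10 counted 2.23, 3.42 and 2.49 CPM in WT mTEChi and 1.45, 1.87 and 1.52 CPM in cHyper mTEChi. WT mTEChi lay below WT mTEClo without overlap, at a mean of 2.71 ± 0.626 CPM, 2.04-fold lower (fitted log2 -1.02). In cHyper the order was the other way, with mTEChi at 1.61 ± 0.224 CPM, 5.94-fold above mTEClo (fitted log2 2.68), again without overlap. Across the 4 groups the order was WT mTEClo, WT mTEChi, cHyper mTEChi and cHyper mTEClo, and no neighbours in it overlapped. The comparisons share libraries, and these levels are a description.

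Ms4a4d was low in mTEChi of both genotypes, with 0.594, 0.649 and 0.144 CPM in WT and 0.351, 0.392 and 0.123 CPM in cHyper. Replicate 3 was the lowest in both, with 4 and 3 fragments. In WT, mTEChi stood 13.3-fold below mTEClo (fitted log2 -3.65) without overlap. In cHyper the 2 cell types overlapped, at 0.289 ± 0.145 and 0.328 ± 0.110 CPM (fitted log2 -0.15, SE 0.50). High Ms4a4d was seen in 1 of the 4 groups, WT mTEClo, and the other 3 overlapped with each other.

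The genes of most similar pattern were found by Pearson's r of log2(CPM + 0.5) over the 12 libraries. The search covered 16060 genes averaging 1 CPM or more, and left out predicted genes (names of Gm and digits or ending in Rik), pseudogenes and the 10 members. The libraries fall into 4 groups, so r mainly describes group levels. They include the mTEClo libraries by which Ms4a10 and Ms4a4d were chosen, so r favours genes that are also low in cHyper mTEClo. The names below are a description, and no link to them was tested. For Ms4a10 these were Matn1, a cartilage matrix protein (r = 0.967), Mapre3, a microtubule-end protein (0.957), and Ifi203, an interferon-inducible gene (0.955). Matn1 stood at 32.2 ± 8.90, 3.75 ± 0.582, 20.4 ± 1.73 and 8.86 ± 1.199 CPM in mTEClo of WT and of cHyper and in mTEChi of WT and of cHyper. It shared with Ms4a10 the rank order of the groups and a level in cHyper mTEClo below both mTEChi groups. For Ms4a4d all 3 carried names of interferon-inducible genes, Ifi213 (0.978), Oas3 (0.965) and Oas2 (0.963). Ifi213 stood at 21.9 ± 1.26, 0.819 ± 0.331, 1.85 ± 0.416 and 0.691 ± 0.260 CPM in the same order of groups. Ms4a10 and Ms4a4d had r = 0.721 with each other over the same 12 libraries.

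The other 8 genes were higher in mTEChi. In WT, 8 of the 8 were called as higher in mTEChi (edgeR), against 40.2% of all genes tested. In cHyper it was also 8 of 8, against 38.7%. They passed the filter on low counts through their mTEChi libraries, so they were bound to stand higher there and the counts are given as a description. With no filter the same 8 genes were called in each genotype, which adds no separate support. The adjusted p of single genes given below for this comparison are likewise a description. All 8 had groups without overlap in both genotypes, against 41.8% of genes higher in this way in WT and 40.3% in cHyper.

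Among genes known from macrophages and monocytes, Ms4a6d counted 7.57, 7.40 and 8.94 CPM in WT mTEChi and 0.0236, 0.0463 and 0 in WT mTEClo. The 3 fragments in mTEClo set its pooled ratio of 278.5, with a 95% exact counting interval of 95.02 to 1353 (edgeR adjusted p = 3.49e-09). Without WT mTEClo replicate 2, which held 2 of the 3, the ratio was 497.7 (89.1 to 19680). In cHyper it counted 6.19, 4.45 and 6.25 CPM in mTEChi against 0, 0.0919 and 0 in mTEClo, at a pooled ratio of 154.7 (95% exact counting interval 60.1 to 569.6, log2 7.18, SE 0.49, edgeR adjusted p = 1.13e-08). All 4 of its mTEClo fragments were in replicate 2. Without that library the level was at least 126.1-fold higher, and without cHyper mTEClo replicate 1 the ratio was 94.2. In both genotypes Ms4a6d had 3 or 4 fragments in mTEClo and the highest TPM of the 10 genes in mTEChi.

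Ms4a7, a gene of tissue macrophages, counted 0.933, 0.930 and 1.298 CPM in WT mTEChi and had 0 fragments in WT mTEClo, at least 36.2-fold higher (edgeR adjusted p = 1.22e-06). In cHyper its pooled ratio was 16.3 (95% exact counting interval 6.07 to 61.5, 0.594 ± 0.0568 against 0.0424 ± 0.0338 CPM, edgeR adjusted p = 5.19e-05), and 25.4 without cHyper mTEClo replicate 3, which held 2 of the 4 mTEClo fragments. Ms4a4a, which associates with the beta-glucan receptor Clec7a on macrophages, was at least 22.9-fold higher in WT mTEChi, from 78 fragments against 0 (edgeR adjusted p = 2.76e-05). In cHyper its ratio was 22.4 (95% exact counting interval 7.34 to 111.2, edgeR adjusted p = 0.000162). Its 3 mTEClo fragments were all in replicate 2, without which it was at least 13.7-fold higher, and the ratio was 13.6 without replicate 1. The WT bounds, set by how deeply the libraries at 0 were sequenced, fell to 21.8 and 21.6 for Ms4a7 and to 13.9 and 13.7 for Ms4a4a without WT mTEClo replicate 1 or 2. Both genes were thus low but present in each of the 6 mTEChi libraries.

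Ms4a4c, known from monocytes, counted 1.89, 1.32 and 1.298 CPM in WT mTEChi against 0.165, 0.0231 and 0 in WT mTEClo, at a pooled ratio of 20.5 (95% exact counting interval 10.2 to 48.2, log2 4.30, SE 0.65, edgeR adjusted p = 3.27e-05). Of its 8 WT mTEClo fragments 7 were in replicate 1, and without that library the ratio was 99.1 (17.6 to 3935). In cHyper its ratio was 48.4 (95% exact counting interval 16.2 to 237.2, edgeR adjusted p = 1.85e-05), 29.4 without cHyper mTEClo replicate 1 and 88.7 without replicate 2. Ms4a6c, another monocyte gene, was 5.97-fold higher in WT mTEChi (0.935 ± 0.144 against 0.157 ± 0.0982 CPM, edgeR adjusted p = 9.33e-05) and 19.5-fold in cHyper (edgeR adjusted p = 5.85e-06). Its value is uncertain, because 51.4% of its 50-base stretches also occur in transcripts of other genes, mostly BE692007 on the opposite strand. BE692007 had nearly the same level in each group, 0.874 ± 0.345 CPM in WT mTEChi and 0.141 ± 0.0941 in WT mTEClo, and whether the counting used strand is not stated. Ms4a10, Ms4a4a and Ms4a8a shared 0 such stretches with other genes, Ms4a4d 0.546%, and the remaining members at most 8.19%.

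Ms4a4b and Ms4a6b, known from T cells, where they associate with the receptor Tnfrsf18 (GITR), were also higher in mTEChi. Ms4a4b counted 1.74, 2.88 and 3.14 CPM in WT mTEChi against 0.307, 0.0926 and 0.0938 in WT mTEClo, at a pooled ratio of 14.0 (95% exact counting interval 8.83 to 23.6, edgeR adjusted p = 2.96e-06), and 26.8 without WT mTEClo replicate 1. In cHyper its pooled ratio was 34.7 (15.7 to 95.7, edgeR adjusted p = 1.82e-06), and 54.2 without cHyper mTEClo replicate 3. Ms4a6b was 14.3-fold higher in WT mTEChi (1.79 ± 0.536 against 0.125 ± 0.0674 CPM, edgeR adjusted p = 8.04e-06) and 6.82-fold in cHyper (edgeR adjusted p = 7.21e-05). Ms4a8a counted 1.78, 1.49 and 1.66 CPM in WT mTEChi, 7.55-fold above mTEClo by mean CPM (edgeR adjusted p = 9.96e-05). Its pooled ratio in WT was 8.36 (95% exact counting interval 5.32 to 13.8), and 5.58 to 11.6 with 1 library left out. In cHyper its pooled ratio was 39.2 (95% exact counting interval 13.1 to 192.6, 3 fragments in mTEClo, edgeR adjusted p = 1.33e-05), 23.8 without cHyper mTEClo replicate 1 and 71.8 without replicate 2. No test of a difference between the genotypes in these changes was run.

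**Figure D3:**
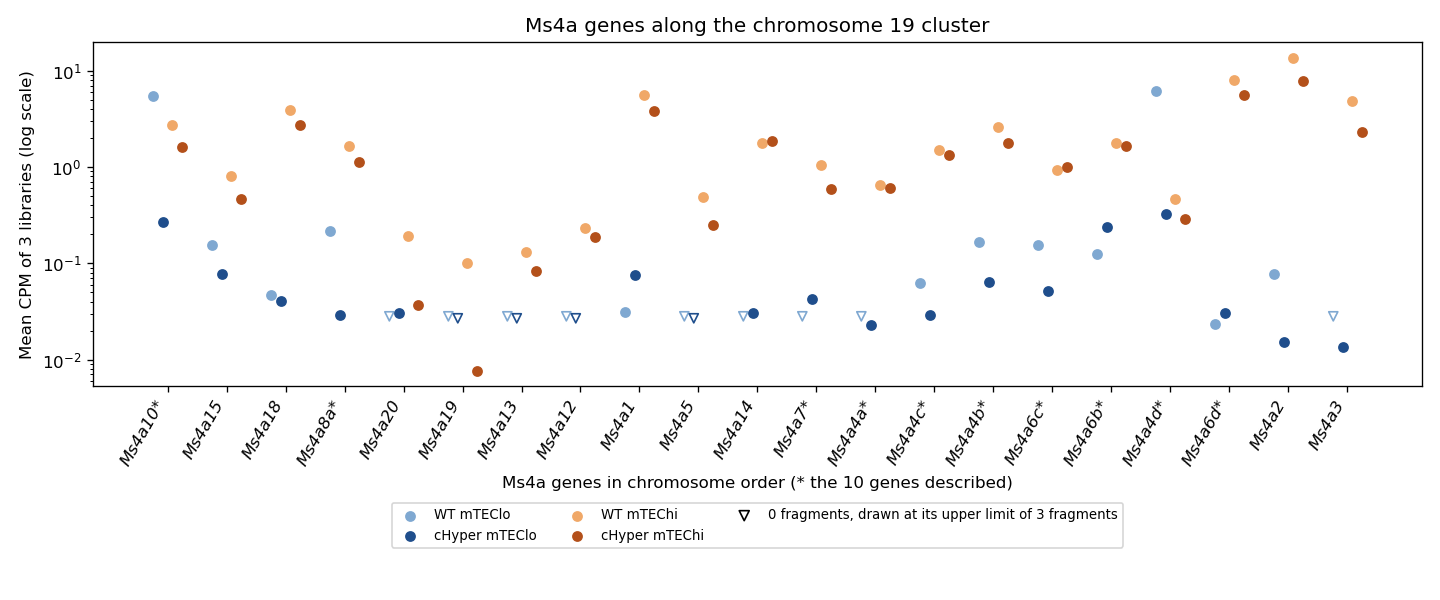
Mean CPM of 3 libraries (log axis) of the 21 Ms4a genes in the order of the chromosome 19 cluster, for the 4 groups; open triangles mark groups with 0 fragments, drawn at their upper limit of 3 fragments. In WT the 2 genes that stand higher in mTEClo than in mTEChi are Ms4a10 at the start and Ms4a4d near the end.

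The other Ms4a genes of the cluster that could be tested moved the same way. Of the 11 other Ms4a genes, 8 could be tested, and 8 of 8 were higher in mTEChi in WT and in cHyper. Over all genes tested these shares were 40.2% and 38.7%. The 8 had passed the filter through mTEChi too, so this is again a description. Ms4a2 stood at 13.6 CPM in WT mTEChi and 0.0782 in WT mTEClo (173.4-fold, edgeR adjusted p = 3.37e-10), Ms4a1 at 5.58 and 0.0313 CPM, and Ms4a3, a gene of granulocyte progenitors, at 4.84 and 0 CPM. Ms4a18, Ms4a14, Ms4a15, Ms4a5 and Ms4a12 had means of 3.94, 1.79, 0.798, 0.493 and 0.234 CPM in WT mTEChi. In WT, Ms4a10 and Ms4a4d were the 2 of the 21 Ms4a genes with a lower mean in mTEChi. The choice of that pair by its mTEClo levels favours this order. Of the 14 genes with other names inside the cluster, 6 could be tested and 4 of them were higher in mTEChi in each genotype. AW112010 had the smallest p (146.8 ± 24.6 against 24.5 ± 3.03 CPM in WT, log2 2.59, edgeR adjusted p = 2.13e-09). Gm6501 and Gm336 were not called in either genotype. BE692007, among the 4, overlaps exons of Ms4a6c on the opposite strand, so its level is not separate from that of Ms4a6c.

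Markers of other cell types also moved with mTEChi. Over all genes tested, 40.2% were called as higher in mTEChi in WT and 38.7% in cHyper. Markers near 0 in mTEClo, such as the mast cell genes, passed the filter on low counts through mTEChi. Such markers were bound to stand higher there, so the list counts are a description. In WT, 14 of 15 macrophage and dendritic cell genes were higher, and their summed level ran from 596.5 to 777.9 CPM in mTEChi and 33.7 to 38.13 in mTEClo. Adgre1 (F4/80) stood at 23.6 ± 2.06 and 0.102 ± 0.0368 CPM, and Cd209a was at 0 in WT mTEClo. All 5 mast cell genes were higher (25.49 to 32.8 against 0.0469 to 0.0926 CPM summed, Mrgprb2 at 0 in WT mTEClo), as were all 5 B cell genes (68.21 to 68.82 against 8.052 to 11.3) and 10 of 12 T cell and thymocyte genes (68.66 to 81.43 against 15.47 to 32.44). No gene of these 4 lists was at 0 in WT mTEChi. All 9 enterocyte and hepatocyte genes, of the kind that mTEC are known to display, were higher as well (496.5 to 717 against 24.3 to 41.41 CPM summed), such as Hnf4g (20.7 ± 1.04 against 2.46 ± 0.0980 CPM). In cHyper, 15 of 15 macrophage, 5 of 5 mast cell, 5 of 5 B cell, 7 of 12 T cell and 9 of 9 enterocyte genes were higher in mTEChi, and Cpa3 of the mast cell list was at 0 in cHyper mTEClo. The part of such cells in the levels of the 8 genes was not tested.

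Some marker groups stood lower in mTEChi of WT, as did Ms4a4d and Ms4a10. The list counts below are of genes called by edgeR. Over all 28932 genes tested, 20119 were called in WT, 57.8% of them as higher in mTEChi and the rest as lower. In cHyper 18648 were called, 60% of them as higher and the rest as lower. By sign alone, without a call, 46.4% of all tested genes had a fitted change below 0 in WT. All 9 tuft cell genes were lower there (161.4 to 212.2 against 811.1 to 1081 CPM summed), as were 14 of 16 interferon-response genes, for example Irf7 (62.7 ± 8.69 against 533.2 ± 69.4 CPM, log2 -3.09, edgeR adjusted p = 5e-10). In cHyper, 8 of 9 tuft genes and 11 of 16 interferon genes were lower in mTEChi, and 3 interferon genes were higher. Ms4a10 went the other way in cHyper, 5.94-fold higher in mTEChi, and Ms4a4d overlapped between the cell types (fitted log2 -0.15). The part of these groups in the levels of Ms4a10 and Ms4a4d was not tested. Of the 10 partner genes, 6 were higher and 3 lower in WT mTEChi. Clec7a was higher (10.97 ± 1.35 against 0.757 ± 0.264 CPM, edgeR adjusted p = 2.94e-09), as was Kit, the receptor of mast cells (144.8 ± 9.28 against 39.0 ± 8.29 CPM, edgeR adjusted p = 1.91e-08), while Trem2 was lower (4.74 ± 0.140 against 21.5 ± 4.05 CPM, edgeR adjusted p = 5.86e-07). In cHyper 6 were higher and 1 lower. Tmem176b was higher in mTEChi of both genotypes (1470 ± 133 against 1094 ± 94.5 CPM in WT, edgeR adjusted p = 0.00276), and Tmem176a was not called.

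Within mTEChi, the genotype changed none of the 10 genes past the test. By edgeR 0 of 10 were called, against 1.98% of all genes tested, and 2 had an unadjusted p under 0.05 (Ms4a10, 0.0184, and Ms4a7, 0.0470). DESeq2 called 1 (Ms4a10, among 1419 of all genes), limma-voom 0, and edgeR with the replicate numbers as a block 0, although the block raised the count over all genes from 572 to 1251. The libraries of this comparison are not those of the mTEClo comparison, which the choice of the genes used. Same-numbered libraries of the groups deviated together, however, so the 2 comparisons may not be independent.

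Ms4a10 had 332 fragments in WT and 184 in cHyper mTEChi, and every cHyper library lay below every WT library. Its log2 change was -0.75 (SE 0.28, edgeR adjusted p = 0.225). With DESeq2 it was -0.81 at an adjusted p of 0.0466, the lowest over its alternatives, which otherwise gave adjusted p of 0.0975 to 0.475. Ms4a7 counted 0.933, 0.930 and 1.298 CPM in WT and 0.548, 0.576 and 0.658 CPM in cHyper mTEChi, without overlap (log2 -0.82, SE 0.37, edgeR adjusted p = 0.325). Ms4a6d counted 7.57, 7.40 and 8.94 CPM in WT and 6.19, 4.45 and 6.25 CPM in cHyper, without overlap (log2 -0.50, SE 0.27, edgeR adjusted p = 0.411). These 3 of 10 genes were lower without overlap, against 13.3% of all tested genes.

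Ms4a4d (log2 -0.66, SE 0.47), Ms4a8a (-0.57, SE 0.42) and Ms4a4b (-0.51, SE 0.35) overlapped between the genotypes in mTEChi, with edgeR adjusted p of 0.538, 0.553 and 0.533. Ms4a4c (-0.19, SE 0.46), Ms4a4a (-0.10, SE 0.47), Ms4a6b (-0.09, SE 0.36) and Ms4a6c (0.10, SE 0.36) had adjusted p of 0.888 or more. The fitted change was below 0 for 9 of the 10 genes, with a median of -0.50, while 50.4% of all tested genes were below 0, with a median of -0.0037. Single libraries turned 3 of these signs: Ms4a6b was 0.15 without WT mTEChi replicate 3 and 0.14 without cHyper mTEChi replicate 3, Ms4a6c was 0 without WT mTEChi replicate 3, and Ms4a4c was 0.13 without cHyper mTEChi replicate 2. Of the 8 other Ms4a genes tested, 0 were called by edgeR and 2 had an unadjusted p under 0.05, Ms4a2 (7.77 against 13.6 CPM, log2 -0.80, SE 0.22, edgeR adjusted p = 0.0847) and Ms4a3 (2.32 against 4.84 CPM, log2 -1.06, SE 0.31, edgeR adjusted p = 0.114). Of these 8, 5 were lower in cHyper without overlap, and their median was -0.66. In mTEClo 0 of the 8 were called for genotype, with 1 at an unadjusted p under 0.05.

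**Figure D4:**
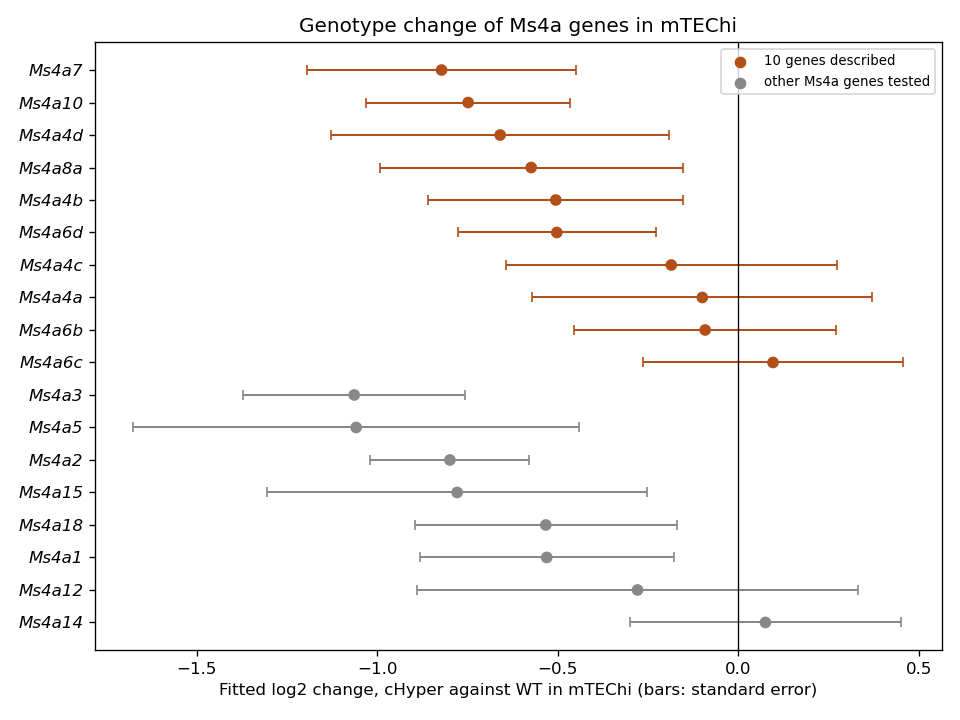
Fitted log2 change, cHyper against WT in mTEChi, for the 10 Ms4a genes and the 8 other Ms4a genes tested; points are edgeR estimates from 3 against 3 libraries and bars 1 standard error. Of the 10 genes, 9 lie below 0 and Ms4a7 is lowest at -0.82; none of the 18 passed the edgeR test.

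Marker lists gave these values in the same comparison. Of 15 macrophage and dendritic cell genes 2 were lower in cHyper mTEChi, Adgre1 (13.2 ± 3.40 against 23.6 ± 2.06 CPM, edgeR adjusted p = 0.0332) and Mrc1, the mannose receptor (39.2 ± 2.23 against 63.8 ± 1.53 CPM, edgeR adjusted p = 0.0352), with a median log2 change of -0.46. Their summed level was 558.1 to 616.6 CPM in cHyper and 596.5 to 777.9 in WT. Mast cell genes had 0 of 5 called by edgeR, 1 at an unadjusted p under 0.05, and sums of 21.04 to 23.05 CPM in cHyper against 25.49 to 32.8 in WT. B cell and T cell lists had 0 called by edgeR, with 0 and 1 at an unadjusted p under 0.05. The median log2 change was -0.544 for endothelial, -0.488 for mast cell, -0.416 for enterocyte and hepatocyte and -0.345 for microfold genes, with 0 called. It was -0.21 for fibroblast, -0.021 for tuft, 0.015 for airway, 0.063 for B cell and 0.441 for T cell genes. The tuft gene Pou2f3 and the airway gene Bpifa1 were called as higher in cHyper mTEChi (edgeR adjusted p = 0.0218 and 0.00408). No gene of these lists was at 0 in either genotype, and their part in the Ms4a levels was not tested. Of 10 mTEC genes 3 were higher in cHyper mTEChi: the keratin Krt14 (542.9 ± 55.7 against 240.9 ± 17.8 CPM, log2 1.17, SE 0.13, edgeR adjusted p = 0.000215), the keratin Krt5 (1335 ± 317.7 against 679.5 ± 107.4 CPM, edgeR adjusted p = 0.0101) and the chemokine Ccl21a (731.7 ± 253.3 against 355.9 ± 37.7 CPM, edgeR adjusted p = 0.0124). All 3 stood higher in WT mTEClo, at 2204, 5905 and 7085 CPM, and their part in the Ms4a levels was not tested either. Of the 10 partner genes, 1 was lower, Syk, the kinase downstream of Clec7a and Fc receptors (69.2 ± 4.60 against 93.9 ± 3.23 CPM, log2 -0.44, SE 0.11, edgeR adjusted p = 0.0495). Of the 16 interferon genes 1 was lower, Mx1 (27.1 ± 1.94 against 46.1 ± 4.96 CPM, edgeR adjusted p = 0.0255), against 15 in mTEClo, a difference between cell types that was not tested here. In mTEChi 7 of the 16 had an unadjusted edgeR p under 0.05, and the median log2 change of the list was -0.322. Rsad2 and Irf7 came close to the threshold (log2 -0.725 and -0.598, edgeR adjusted p = 0.0529 and 0.0553).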

How the data were processed

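Per the labels' protocols, paired-end stranded libraries were made from mRNA of sorted mTEC. The authors deposited raw fragment counts per gene and TPM in 1 table of 12 library columns. The 20 labelled samples include 2 runs each of replicates 1 and 2, which the table holds combined. Per the submitters' processing notes the build was mm10, with featureCounts (Subread 2.0.1), TopHat2 2.1.1 and SAMtools 1.9. Whether counting used strand, which annotation and which filters is not stated in these sources, so overlapping and near-identical genes are uncertain. The table has 1 further column of per-sample values, which was not used.

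Counts were tested with edgeR 4.0.16 under R 4.3.3, by its quasi-likelihood test after TMM scaling and filterByExpr, with 12 libraries in 1 fit on 4 group means, 8 residual degrees of freedom, Benjamini-Hochberg adjustment over 28932 genes, called under 0.05. All 10 members passed the filter (a CPM cutoff of 0.234), Ms4a10 and Ms4a4d through WT mTEClo too, the other 8 through mTEChi. Only the edgeR fit and test were run on simulated counts, for the comparison of cHyper against WT in mTEChi. The ratios, intervals, sequence searches and alternative fits were not tried in this way. TPM entered no test. Intervals and limits cover counting error only. DESeq2 1.42.0, limma-voom (limma 3.58.1), other scalings, no filter, left-out libraries and the replicate block were alternatives.

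Replicate numbers come from the labels. Same-numbered libraries deviated together from their group means, with correlations of 0.171 to 0.373 in every pair, so the numbers may pair the samples. The reported edgeR tests did not use this pairing, which entered only the alternative fit with a replicate block.

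Members, lists, and the partner, interferon and marker genes were chosen with earlier results of these data known. Named are all members, other Ms4a genes averaging 0.1 CPM or more, up to 3 genes per list and comparison with the smallest p, and the 3 most similar genes of Ms4a10 and Ms4a4d. Chosen after seeing their values, outside this rule, were Epcam, H2-Aa, Tyrobp, Trem2 between the cell types, and Cd209a, Mrgprb2 and Cpa3, named for being at 0. The fibroblast, endothelial, microfold and airway lists had 2, 0, 0 and 3 genes higher and 1, 0, 1 and 0 lower in cHyper mTEClo.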

Additional observations from a re-analysis of the deposited data

Results flagged for a closer look

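Ms4a10 changed its order between the genotypes. Its mean in mTEChi minus that in mTEClo was -2.82 CPM in WT and 1.34 CPM in cHyper, and no library of one cell type overlapped with the other in either genotype. The difference between the genotypes was not tested, because the gene was chosen for its level in cHyper mTEClo.

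The mean differences of Ms4a7 lay on opposite sides of 0 in the 2 cell types. Its mean in cHyper minus that in WT was 0.0424 CPM in mTEClo, from 4 fragments against 0, and -0.46 CPM in mTEChi, from 66 fragments against 123. Groups did not overlap in either cell type. The mTEClo value rests on 4 fragments, and the mTEChi change was not called (edgeR adjusted p = 0.325), so no difference in direction is shown, and none was tested.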

How the results depend on the processing

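The count of members called kept within 1.5 times its reported value in 59 of 60 alternative fits. These fits pool the genotype comparison of mTEChi with the cell type comparisons, where the tested members were bound to stand higher. The exception was DESeq2 in mTEChi, with 1 member called for genotype (Ms4a10) in place of 0. The count over all genes moved most in that comparison. It was 572 as reported, 1071 with only the compared groups in the fit, 1251 with the replicate block, 312 with replicates 1 and 2 only, 1419 with DESeq2 and 862 with limma-voom, and 295 to 698 when 1 library was left out. Each of the 6 mTEChi libraries, left out, took it to between 295 and 333. The replicate block changed no call of a member. The cause of these moves was not tested. Of the calls in that comparison 78.8% were higher in cHyper, against 66.0% with DESeq2 size factors, 64.4% with library totals, 49.8% with DESeq2, 50.1% with only the compared groups and 59.2% with limma-voom. The median log2 change of all genes between mTEChi and mTEClo of WT was 0.123 as reported and 0.341 with library totals (0.132 and 0.297 in cHyper).

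Of 518 alternative values of tested members, 511 kept direction and call. This count includes the cell type comparisons, where the tested members were bound to stand higher. It also includes fits without a library that does not enter the comparison, so it is no measure of robustness. Leaving out 1 library each in mTEChi gave -0.31 to 0.15 for Ms4a6b, 0 to 0.18 for Ms4a6c and -0.46 to 0.13 for Ms4a4c. The sign turned for Ms4a6b in mTEChi (cHyper against WT) to 0.39 with replicates 1 and 2 only, 0.15 without WT mTEChi replicate 3 and 0.14 without cHyper mTEChi replicate 3. It turned for Ms4a6c to -0.04 with replicates 1 and 2 only and 0 without WT mTEChi replicate 3, and for Ms4a4c to 0.13 without cHyper mTEChi replicate 2. Changes described without a test are counted apart: 57 of their alternative values were marked as moved and 223 as the same. They are the genotype changes in mTEClo and the cell type changes of Ms4a10 and Ms4a4d. Ms4a7 in mTEClo, 3.59 as reported and 3.49 with library totals, was marked as moved. Ms4a4d between the cell types of cHyper, -0.15 as reported and 0.03 with library totals, was marked as the same. The described change of Ms4a10 in mTEClo ran from -4.89 to -4.05 as cHyper libraries were left out. Depth limits the mTEClo values of the 8 other members, which rest on 0 to 29 fragments a group.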
